A study of Drosophila melanogaster with 3 samples.

Results

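Calls for CG10565 on chromatin were described at rdx and 7 core Hedgehog pathway genes (hh, ptc, smo, ci, cos, fu and Su(fu)). These are 8 of the 18277 annotated genes. The genes were chosen by symbol with the calls of these lists already known, and rdx was chosen for its peaks, so every value below is a description and carries no test. A call was assigned to a gene when its summit lay inside the gene or within 1000 bp of it. By this rule the 8 genes held 58 of the 30000 pooled calls.

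The data were lists of regions called from chromatin immunoprecipitation and sequencing (ChIP-seq). It was done with an antibody against GFP on embryos of both sexes aged 0 to 24 hours. The flies were a transgenic Drosophila melanogaster line that stably expressed CG10565 with GFP fused at its C-terminus, and chromatin was sonicated to 200 to 800 bp. The 3 biological replicates, numbered 1, 2 and 4 in the labels, formed a single group with no second genotype, treatment or stage, and whole embryos mix all cell types. The 1 control alignment behind the calls was not analysed here.

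Each replicate list and the list from the pooled replicates held 30000 calls. The optimal list, selected by the authors with the irreproducible discovery rate (IDR, a measure of how alike calls rank between replicates), held 1143, all with the coordinates of a pooled call. Signal is the authors' value for a call and can be compared only within 1 list, so ranks are given throughout, with 1 as the strongest. Read counts were not part of these lists, so the depth behind each call is unknown. IDR and pooled calls are built from the replicates, so their presence in the replicates is not independent support. The IDR peaks at rdx ranked 180, 420, 890 and 1130 both in the IDR list and in the pooled list. Down to rank 1130, the IDR list thus held every pooled call. A place on it therefore follows pooled signal and does not show that the replicates agreed on that call.

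In Hedgehog signalling the secreted ligand Hh binds its receptor Ptc, which releases the membrane protein Smo from inhibition. Smo acts through a complex of the kinesin-like protein Cos, the kinase Fu and the inhibitor Su(fu), and this complex decides whether the transcription factor Ci is cut to a repressor or kept whole as an activator of target genes such as ptc. The gene rdx (roadkill) encodes a BTB-domain adaptor of Cul3 ubiquitin ligases that marks Ci for degradation and is itself switched on by the pathway. CG10565 itself is the fly relative of DNAJC2, a human ribosome-associated chaperone with a J domain.

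An IDR peak was assigned to 1 of the 8 genes, rdx, against 8.3% of all genes, and since rdx was chosen for its peaks nothing is read from that share. Of the 313 protein-coding genes of 50000 bp or more, the length class of rdx, 28.4% had an IDR peak. The gene rdx held 4 IDR peaks, a number that 0.0711% of all genes and 2.24% of the long protein-coding genes reached or passed. In the single replicates, one of the strongest 1143 calls was assigned to 3 of the 8 genes in replicate 1 (rdx, ptc and smo, against 8.45% of all genes). It was assigned to rdx alone in replicate 2 (1 of 8, against 8.04%) and in replicate 4 (1 of 8, against 7.94%).

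The gene rdx (FBgn0264493) lies on the minus strand of chromosome 3R at 13967061 to 14032057 in dm6. It spans 65 kb and has 5 transcripts from 4 start sites. Only 206 annotated genes (1.13%) are at least as long, and 60 of those had an IDR peak. The 4 IDR peaks lay within 34.5 kb, at spacings of 16.1, 13 and 5.48 kb. All 4 fell in the 55.8 kb intron of transcript rdx-RB and in the 52.5 kb intron of rdx-RC that nearly coincides with it. One of them was also a promoter peak, because it lay beside the start of the shorter transcript rdx-RE. An annotated start site of rdx itself was the nearest start to each of the 4.

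The sequences at the 4 IDR summits are shown because these peaks are the strongest pooled calls at any of the 8 genes. The fifth sequence belongs to the pooled call just below them in signal. Each run is 201 bases centred on the summit, read from the RefSeq reference of release 6 (dm6) on the minus strand, the strand of rdx. Capitals mark a GAGA match (GAGAG or its reverse complement) or a match to the Zelda motif (CAGGTAG or its reverse complement), both searched on both strands; no other letters are capitalised.
rdx peak 19.3 kb downstream of the first start, chr3R:14012625-14012825: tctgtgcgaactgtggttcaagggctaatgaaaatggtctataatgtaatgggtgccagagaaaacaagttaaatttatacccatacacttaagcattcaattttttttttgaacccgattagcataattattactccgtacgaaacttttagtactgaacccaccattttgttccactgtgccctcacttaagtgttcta
rdx-RE promoter peak, chr3R:13983565-13983765: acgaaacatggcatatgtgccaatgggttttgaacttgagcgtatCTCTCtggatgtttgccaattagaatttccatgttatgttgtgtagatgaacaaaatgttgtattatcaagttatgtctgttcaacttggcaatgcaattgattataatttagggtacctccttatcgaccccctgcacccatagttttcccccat
rdx peak 13.9 kb downstream of the first start, chr3R:14018105-14018305: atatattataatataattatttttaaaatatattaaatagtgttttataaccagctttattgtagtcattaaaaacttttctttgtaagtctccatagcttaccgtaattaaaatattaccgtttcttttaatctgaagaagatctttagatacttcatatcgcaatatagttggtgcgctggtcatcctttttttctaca
rdx peak 32.3 kb downstream of the first start, chr3R:13999669-13999869: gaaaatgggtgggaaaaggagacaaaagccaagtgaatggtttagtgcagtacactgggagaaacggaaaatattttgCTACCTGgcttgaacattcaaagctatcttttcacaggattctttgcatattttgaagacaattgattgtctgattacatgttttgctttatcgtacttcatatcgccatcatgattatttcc
rdx pooled call below the IDR list, chr3R:13984980-13985180: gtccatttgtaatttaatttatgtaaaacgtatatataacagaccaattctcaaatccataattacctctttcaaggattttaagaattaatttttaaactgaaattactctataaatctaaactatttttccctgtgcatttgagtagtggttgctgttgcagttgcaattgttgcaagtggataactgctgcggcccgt

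The strongest call at rdx was a narrow intronic peak at 14012665 to 14012767. It had a pooled signal of 234 and a pooled rank of 180, and its summit lay 19.3 kb downstream of the first start site and 13237 bp downstream of the second. The replicate calls over this summit ranked 415 in replicate 1 (signal 53.5), 119 in replicate 2 (signal 102) and 231 in replicate 4 (signal 78.2). It was therefore among the strongest 1143 calls of every replicate, and the replicate summits lay 43, 1 and 19 bp from the pooled one. At 103 bp it was much narrower than the usual 370 bp of the pooled list, and 24 of the 1143 IDR peaks were no wider.

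The second peak, at 13983480 to 13983849, marked an internal promoter. Its summit lay 302 bp upstream of the start of rdx-RE, with a pooled signal of 169 and rank 420. It ranked 304 in replicate 1 (signal 60.4), 283 in replicate 2 (signal 69.6) and 1192 in replicate 4 (signal 41.7). Replicate 4 thus placed it just outside its strongest 1143 calls, and the summits of replicates 1, 2 and 4 lay 57, 4 and 87 bp away.

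The other IDR peaks at rdx were less even between replicates. The peak at 14018020 to 14018389 had a signal of 120 and rank 890. It ranked 1395 in replicate 1 (signal 31.6) and 668 in replicate 4 (signal 52.7), and no call of replicate 2 covered its summit. The peak at 13999584 to 13999953 stood near the end of the IDR list, with a signal of 107 against 106 for the weakest IDR peak. It ranked 1130 in the pool, 5357 in replicate 1 (signal 17.5), 893 in replicate 2 (signal 40.2) and 2382 in replicate 4 (signal 31.5). Replicate 2 ranked this peak highest and lacked the one at 14018205, so the replicates did not order the weaker pair alike.

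The strongest call at rdx outside the IDR list lay 1717 bp upstream of the rdx-RE start, with a signal of 94.4 and rank 1411. Its summit at 13985080 was inside a call of every replicate, at ranks of 1000, 1092 and 2593 in replicates 1, 2 and 4. Of the 4 IDR peaks, 3 had the summit inside a call of every replicate, and the share of all IDR peaks with such support was not computed. The call at 13985080, below the list, had such support too. A neighbouring pooled call at 13985279, with rank 7122, shares its replicate 1 and replicate 4 calls with it.

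**Figure D1:**
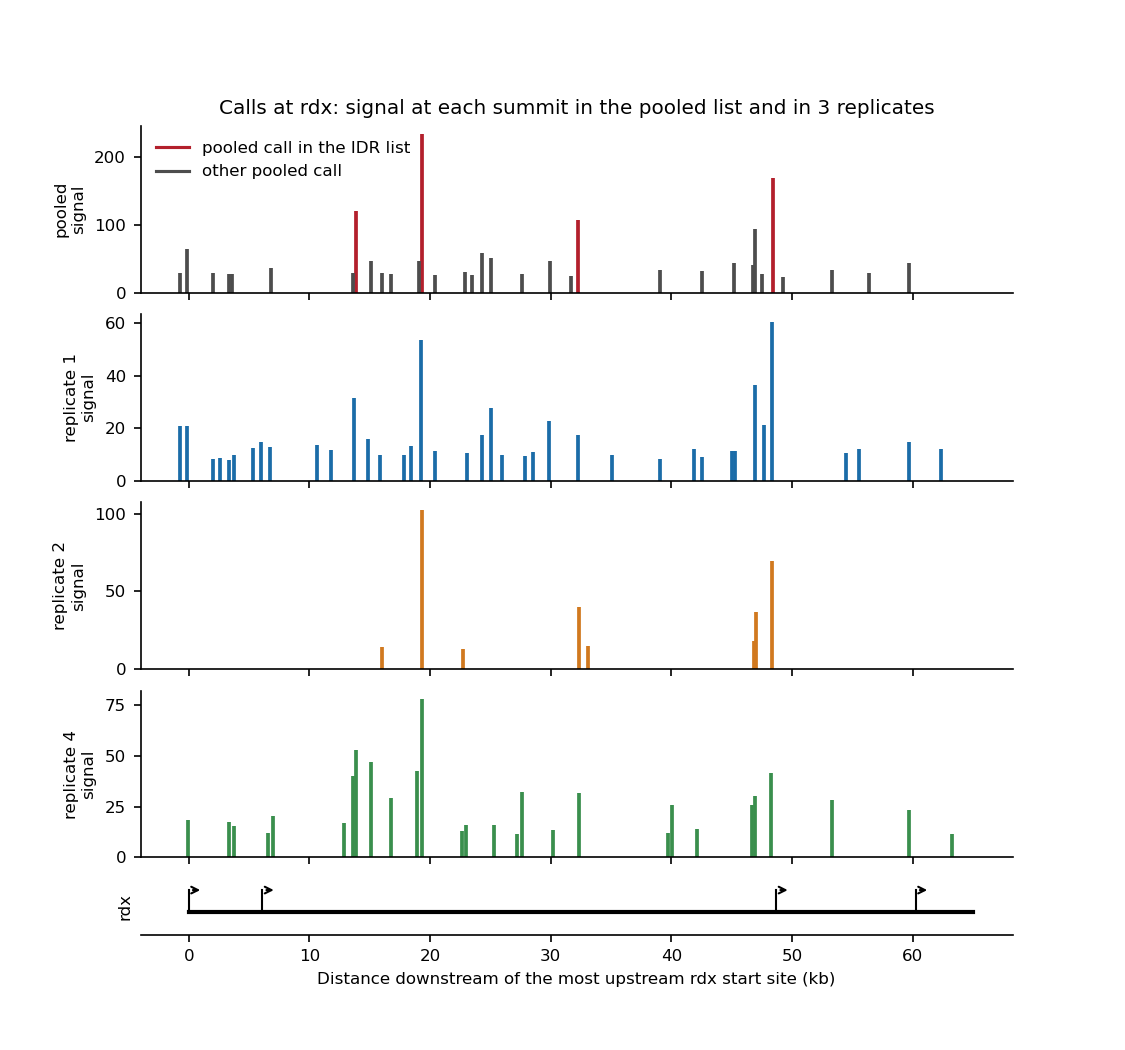
Signal at each call summit along rdx in the pooled list and in replicates 1, 2 and 4 (vertical axes, the authors' signal, on a separate scale for each list), against the distance in kb downstream of the most upstream rdx start site. Red lines are the 4 pooled calls in the IDR list; arrows below mark the 4 start sites. The tallest pooled line, 234, stands 19.3 kb into the gene and is also the tallest in replicates 2 and 4, whereas in replicate 1 the line at 48.4 kb is taller.

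The 4 starts of rdx were covered unequally, and that of rdx-RE, described above, carried the strongest call. A pooled call lay 109 bp upstream of the first start site (rdx-RB), with a signal of 64 and rank 2865. It ranked 3622 in replicate 1 and 9284 in replicate 4, and the nearest call of replicate 2 was 9815 bp away. At the second start (rdx-RC) the nearest pooled summit was 747 bp downstream with rank 9724, while a replicate 1 call of rank 8033 lay 93 bp upstream. At the fourth start (rdx-RA and rdx-RF) the nearest pooled summit was 588 bp upstream with rank 6298, with calls in replicates 1 (8139) and 4 (5097) and the nearest of replicate 2 at 9242 bp. Of the 4 starts, only that of rdx-RE had an IDR summit within 500 bp, and only there did all 3 replicates have a summit within 500 bp.

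In all, rdx held 33 pooled calls, of which 28 were intronic, 4 lay within 500 bp of a start site and 1 was in a coding exon. They ranked from 180 to 29945 with a median of 12596, and 18 of the 33 were among the strongest 15000 of the list. The shares of intronic, promoter and exonic calls over the whole pooled list were not computed. The 42.6 kb between the second start and that of rdx-RE held 24 of the pooled calls and all 4 IDR peaks. The 6.09 kb between the first and second starts held 3 pooled calls, and the 5.74 kb downstream of the fourth start held none. Of the promoter calls, one is nearest to Cyp6d5, a cytochrome P450 gene inside rdx, and one to CG3061, which starts upstream of it.

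Replicate 2 stood apart at rdx by its small number of calls. The gene held 39 calls in replicate 1, 8 in replicate 2 and 28 in replicate 4, although each list had 30000. Per 10 kb this was 5.82, 1.19 and 4.18, against 2.18 across the genome in each list. Over the 313 long protein-coding genes the median was 1.6 in replicate 1, 2.43 in replicate 2 and 1.88 in replicate 4. The rdx density was above the upper quartile of those genes in replicates 1 and 4 (2.88 and 2.96) and below the lower quartile in replicate 2 (1.8). Among the strongest 1143 of the 30000 calls of each list were 4 of the 8 rdx calls in replicate 2. In replicate 1 these were 3 of 39 and in replicate 4 they were 4 of 28. The gene was chosen for its peaks, so nothing is read from these counts.

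Of the 33 pooled calls at rdx, 5 had the summit in a call of all 3 replicates, 10 in exactly 2, 14 in exactly 1 and 4 in none. Over all 30000 pooled calls the shares were 13.2, 33.6, 43.3 and 9.98% in the same order. Replicate 1 covered 23 of the 33 summits, replicate 4 covered 20 and replicate 2 covered 6, against 50, 49.9 and 50% of all pooled summits for replicates 1, 4 and 2. Without replicate 2, the number covered by every remaining replicate was 15. Neighbouring pooled calls can share replicate calls, as do those at 14012725 and 14012930 and those at 14018205 and 14018420. These counts are therefore not of separate replicate calls. The most frequent call width was 370, 350 and 600 bp in replicates 1, 2 and 4, so a summit falls inside a call more easily in replicate 4. The pooled call at 14016970 ranked 5173, and its summit was covered by a replicate 4 call of rank 880. A replicate 1 call of rank 6843 overlapped this pooled call without reaching its summit, and replicate 2 had no call there.

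**Figure D2:**
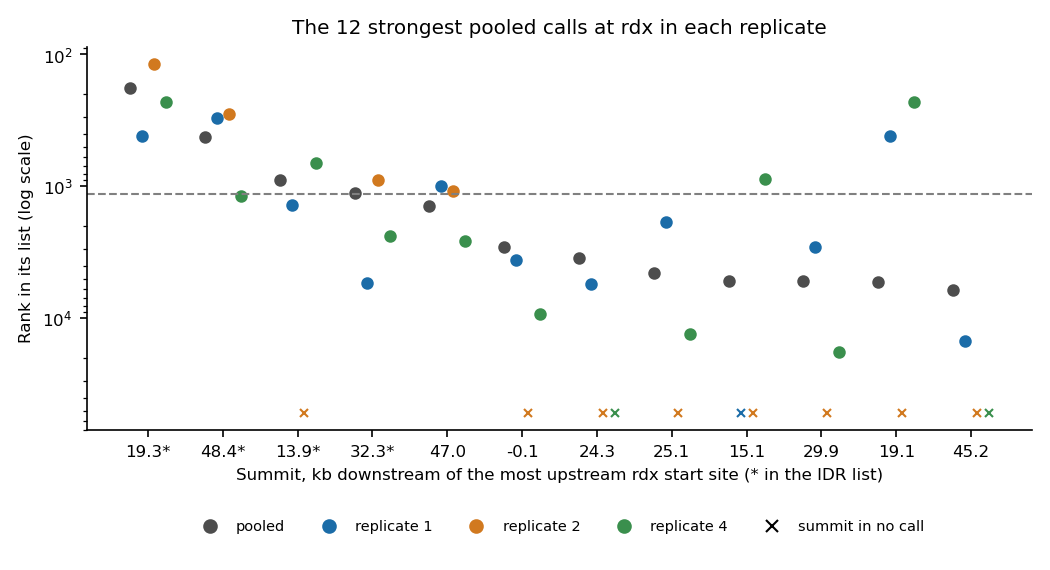
Rank of the 12 strongest pooled calls at rdx in the pooled list and in the replicate call over each summit (log scale, stronger calls higher), ordered by pooled rank and labelled by the distance in kb from the first start site. Crosses mark a summit inside no call of that replicate and the dashed line is rank 1143. The calls at 19.3 and 48.4 kb rank high in all 3 replicates, whereas the call at 13.9 kb and each of those ranked below the fifth have no replicate 2 call over the summit.

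Among the ligand, receptor and transducer genes, ptc carried the strongest pooled calls. The gene ptc (FBgn0003892, 2R 8649649 to 8665223, plus strand), which encodes the Hedgehog receptor and is a classic target of the pathway, held 9 pooled calls. The strongest, at 8652486 in an intron 2837 bp downstream of the start, had a signal of 91.4 and rank 1516, just below the IDR list. It ranked 6139, 6373 and 1296 in replicates 1, 2 and 4. The next, at 8654447 and 4798 bp downstream, had a signal of 89.4 and rank 1584, with ranks of 689, 2196 and 26651. The replicates thus differed over which was stronger, since replicates 1 and 2 ranked the second call higher and replicate 4 the first. The nearest other start is that of lncRNA:CR44281, 990 bp from the first of these summits.

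The remaining ptc calls were weaker in the pool. The call at 8659746 ranked 4661, with ranks of 2854 and 3247 in replicates 1 and 2 and none in replicate 4. At the 5′ end, a pooled call 588 bp downstream of the start ranked 12562 and had a call in all 3 replicates. Within 500 bp of the start itself, replicate 1 had 3 calls, at ranks of 5919, 9789 and 12887, and the pool had none. Of the 9 pooled calls, 3 were covered by all 3 replicates.

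The ligand gene hh (FBgn0004644, 3R 23128169 to 23141906, minus strand) held 6 pooled calls. The strongest lay at the promoter, 368 bp downstream of the start, with a signal of 45.2 and rank 5685. It ranked 10065 in replicate 1 and 10436 in replicate 2, and replicate 4 had no call over it. Replicates 2 and 4 had their strongest hh calls elsewhere. Replicate 2 had a call of rank 3861 at 959 bp upstream of the start. The best call of replicate 4, of rank 3197, was at the opposite end of the gene, 237 bp upstream of the start of CG31457. No pooled call at hh had its summit in calls of all 3 replicates.

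The transcription factor gene ci (FBgn0004859, chromosome 4 47710 to 57041, minus strand) had the densest calls of the 8 genes in the pool, and none was strong. It held 9 pooled calls, or 7.94 per 10 kb, against 4.17 for all of chromosome 4 and 2.18 for the genome. Chromosome 4 itself varied between replicates, with 4.72, 1.85 and 5.46 calls per 10 kb in replicates 1, 2 and 4, and ci followed with 8.82, 2.65 and 6.18. The strongest pooled call, of rank 7733 and signal 39.6, lay beyond the 3′ end of ci, and calls of replicates 1, 2 and 4 over it ranked 6327, 18146 and 22524. The intronic call 1314 bp downstream of a start ranked 8639 in the pool and 2053 in replicate 4, the best rank of ci in any list. The promoter call 336 bp downstream of a start ranked 9832, with a rank of 3472 in replicate 4.

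**Figure D3:**
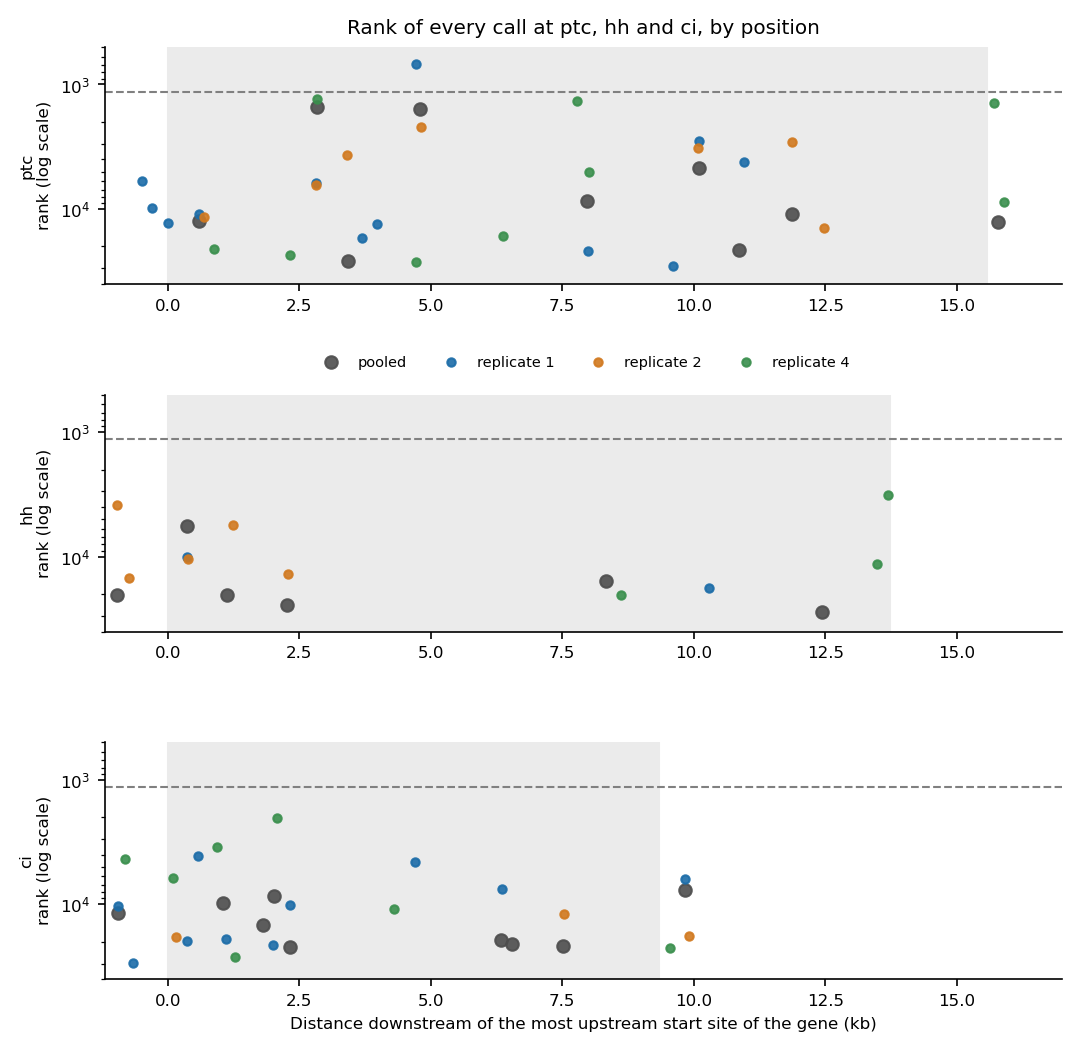
Rank of every call at ptc, hh and ci in the pooled list and in replicates 1, 2 and 4 (log scale, stronger calls higher), against the distance in kb downstream of the most upstream start site; grey shading is the gene and the dashed line is rank 1143. A single call lies above the line, that of replicate 1 at ptc with rank 689, and the pooled calls at hh and ci stay at 5685 or weaker.

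The other 4 genes had few calls or none. For smo (FBgn0003444, 2L 277582 to 282167, plus strand), the membrane transducer, the only call in any list was one of replicate 1. It ranked 1011 with a signal of 36.4, and its summit lay 186 bp upstream of the smo start and 184 bp upstream of the start of the divergent gene CG17078. No call of replicates 2 or 4 and no pooled call overlapped it, so a rank inside the strongest 1143 of replicate 1 did not carry into the pool.

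The kinase gene fu (FBgn0001079, X 18657755 to 18661204) had 1 pooled call, 110 bp upstream of its start, with a signal of 28.5 and rank 18583, and replicate 1 covered it at rank 10995. The kinesin-like gene cos (FBgn0000352, 2R 7382176 to 7387115) had 4 calls in replicate 1 and none in the other lists. The best of these ranked 5823 and lay 28 bp downstream of a start of Dscam1, and the one 190 bp upstream of the cos start ranked 13240 and was nearer to Dhx15, at 19 bp. The inhibitor gene Su(fu) (FBgn0005355, 3R 12689873 to 12691468) had a replicate 1 call of rank 10673, 213 bp upstream of its start and 62 bp upstream of that of Arp1. Its replicate 4 call of rank 12415 lay 172 bp downstream of the start of kar. Each of these cos and Su(fu) calls lay nearer to a start of a neighbouring gene than to that of cos or Su(fu).

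Across the lists, a pooled call was assigned to 5 of the 8 genes (rdx, hh, ptc, ci and fu), against 68.7% of all genes. Replicate 1 had a call at 8 of 8 (against 68.8%), replicate 2 at 4 of 8 (against 63.4%) and replicate 4 at 5 of 8 (against 65.7%). A replicate 1 call without any pooled call was found at 3 of 8 (smo, cos and Su(fu)), against 10.3% of all genes. Among genes with a call, the median best pooled rank was 5685 over the 5 members and 7430 over all 12555 genes. In replicates 1, 2 and 4 it was 4955, 3028.5 and 2053 for the members, against 6757, 8248 and 7661 for all genes with a call. These medians include rdx, chosen for its peaks, and leave out members in lists where they had no call. Nothing is therefore read from them. By best pooled rank the order was rdx, ptc, hh, ci and fu. In each of the 4 lists rdx came first and ptc second, whereas hh stood ahead of ci in the pool and in replicate 2 and behind it in replicates 1 and 4.

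**Figure D4:**
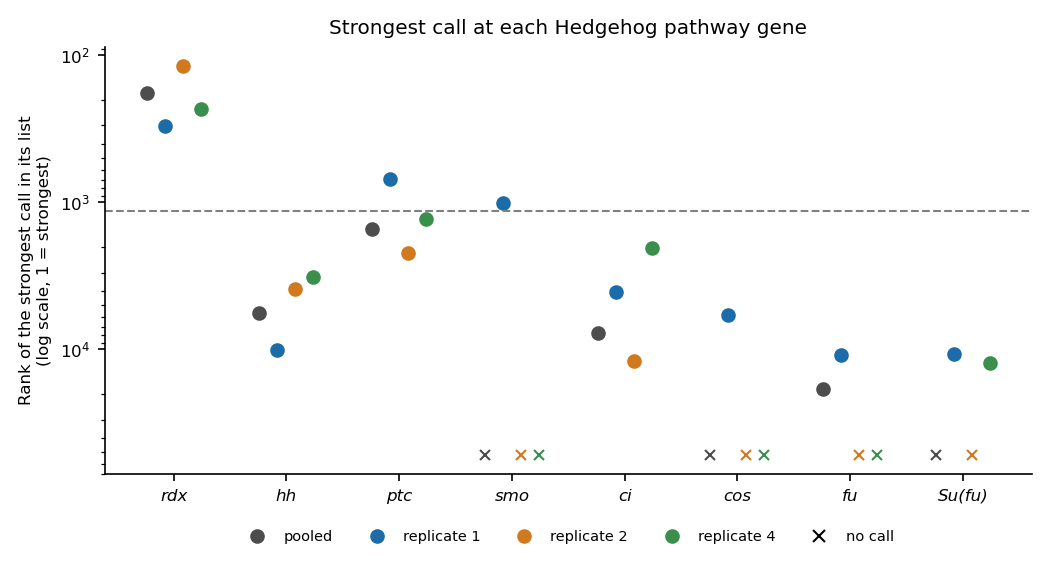
Rank of the strongest call at each of the 8 genes in the pooled list and in replicates 1, 2 and 4 (log scale, stronger calls higher); crosses mark a list with no call and the dashed line is rank 1143. All 4 points of rdx lie between 119 and 304, whereas 4 genes (smo, cos, fu and Su(fu)) have no call in 2 or more of the lists.

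Of the 58 pooled calls at the 8 genes, 42 were in introns, 8 at promoters and 3 in coding exons. Another 2 were in exons of untranslated regions and 3 outside the gene. Of the 42 in introns, 28 were at rdx. The shares of these locations over all pooled calls were not computed, so nothing is read from them. The summits of the 58 calls were covered by all 3 replicates in 9 cases, by exactly 2 in 17, by exactly 1 in 27 and by none in 5. Over all pooled calls the shares were 13.2, 33.6, 43.3 and 9.98% in the same order. GC content over 201 bp had a median of 35.5%, against 38.3% for all pooled calls and 34.3% for all IDR peaks. At the 4 rdx IDR peaks it was 36.3, 38.8, 24.9 and 36.8%, in order of signal.

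The binding motif of Ci, the factor that the pathway controls, was searched within 100 bp of each summit as GACCACCCA on both strands. An exact match was present in none of the 58 calls, against 0.0767% of all pooled calls. With up to 1 mismatch it was present in 2 of 58 (3.45%), against 2.55%, and the 2 were weak calls at hh (rank 28094) and ptc (rank 26348). None of the 33 rdx calls held it within 100 bp. Within 200 bp, 3 of the 33 rdx calls (9.09%) held it with up to 1 mismatch, against 5.67% of all pooled calls. In that wider window an exact match was present in 1 of the 58 member calls (1.72%), against 0.197%. GAGAG was present in 7 of the 33 rdx calls (21.2%), against 19.7% of all pooled calls. It was present in 1 of the 4 rdx IDR peaks, the rdx-RE promoter, against 23.2% of all IDR peaks. The Zelda motif CAGGTAG was present in 1 of the 33 rdx calls, against 0.933% of all pooled calls. It lay 16 bp from the summit of the IDR peak 32.3 kb into rdx, and 1.05% of all IDR peaks held it. A match in these windows is a description of the letters and not evidence of a site.

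The genes whose best ranks were most like those of rdx were found by Euclidean distance between log10 best ranks in 4 lists (the pool and 3 replicates), where rdx had 180, 304, 119 and 231. The nearest was the nuclear receptor gene Hr4 (X, 66017 bp), at a distance of 0.136, with ranks of 146, 323, 128 and 187 and 4 IDR peaks. It was followed by CG42788 and CG6966 on 3R, both at 0.137, which share their ranks of 169, 396, 136 and 212 because they share the same call.

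A wider list of 59 other Hedgehog pathway genes, drawn up by role with earlier results of these lists known, showed strong calls at several regulators. Of the 59, 12 (20.3%) had an IDR peak, against 8.3% of all genes. The share was 28.4% of protein-coding genes of 50000 bp or more, a length that 5 of the 59 reached. A pooled call was assigned to 54 of the 59, against 68.7% of all genes. A summit anywhere in a gene counts, the median annotated gene spans 1646 bp, and gene length was not matched. Nothing is therefore read from these shares. By role, an IDR peak was found at 4 of 12 kinases and phosphatases, 3 of 7 transcription cofactors, 2 of 6 genes of ligand transport and heparan sulfate synthesis, 2 of 12 genes of the ubiquitin system and 1 of 4 genes of ligand production. It was found at none of the 16 target genes and at neither of the 2 co-receptors, ihog and boi. With 8.3% of all genes called, groups this small can hold none, so nothing is read from that absence. The roles were not compared by a test. The strongest peak lay in an intron in 4 of the 12 and at a promoter in 8, and in 6 of the 12 the nearest start site belonged to another gene.

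The strongest calls of the wider list were at kinase genes. Gprk2, a kinase that phosphorylates Smo, had a peak of signal 632 and rank 10, with ranks of 8, 13 and 18 in replicates 1, 2 and 4. Its summit lay 574 bp upstream of the Gprk2 start and 69 bp downstream of that of PNPase. The casein kinase gene gish had a promoter peak of signal 404 and rank 42, with ranks of 32 in replicate 1 and 47 in replicate 4 and no replicate 2 call over the summit. At sgg, the fly GSK3 kinase, a peak 170 bp upstream of a start had a signal of 190 and rank 307. At wdb, a regulatory subunit of protein phosphatase 2A, an intronic peak ranked 745.

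Among cofactors and ubiquitin genes, 3 peaks stood near the pooled rank of 180 of rdx. The chromatin remodeller gene brm had a peak 130 bp upstream of its start (signal 242, rank 161). The peak at nej, which encodes the CBP acetyltransferase that binds Ci, lay 659 bp upstream of its start and 464 bp from lncRNA:CR42657 (signal 237, rank 172). The peak of SkpA, a subunit of SCF ubiquitin ligases, ranked 181 and was nearer to Hmt4-20, at 184 bp, than to SkpA, at 992 bp. The gene tara was listed as a cofactor with earlier results of these lists known, and its place in the pathway was not tested here. It is among the 3 cofactors and the 12 wider-list genes with an IDR peak. It held 5 IDR peaks, the strongest with rank 615 in an intron. Replicate 1 covered that summit at rank 154 and replicate 4 at 7959, and no call of replicate 2 covered it. The ubiquitin ligase gene Ubr3 had an intronic peak of rank 738. Cul3, the ligase scaffold that the rdx protein joins, had no IDR peak, and its best pooled call ranked 4650.

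At genes of ligand handling, IDR peaks were found at dlp, ttv and shf. The glypican gene dlp had 2 IDR peaks, the stronger of rank 453 in an intron, and ttv, a heparan sulfate polymerase, had a promoter peak of rank 912, 67 bp upstream of a start. The peak at shf, which encodes a secreted Hh-binding factor, ranked 1014 and lay 47 bp upstream of the start of Coq7 and 8481 bp from that of shf. Of the target genes, dpp came closest to the IDR list, at rank 1297, followed by slp1 at 1688 and dac at 1723. The segment polarity genes wg and en had best ranks of 3138 and 16039.

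**Figure D5:**
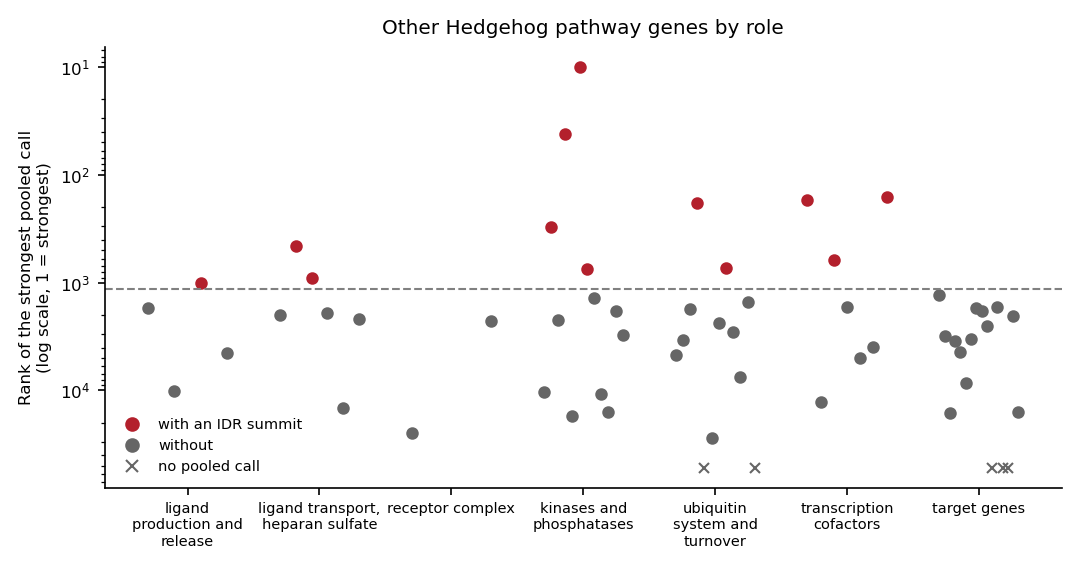
Rank of the strongest pooled call at each of the 59 other Hedgehog pathway genes (log scale, stronger calls higher), by role; red points have an IDR peak, crosses have no pooled call and the dashed line is rank 1143. The 4 kinase and phosphatase genes with an IDR peak include the strongest call, at rank 10. The 16 target genes all lie below the line, and roles were not compared by a test.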

How the data were processed

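The authors deposited peak lists for dm6 and dm3. Per the deposited description, calling used the alignment of a single replicate or the pooled alignments of all 3, with 1 control alignment, and the IDR list was derived from the replicate and pooled lists. For the aligner, the caller and the cut on IDR, names and settings were not given in the sources used here. In the deposited lists, column 7 holds the signal of a call, which ranked it within its list. The deposited score in column 9 served only as an alternative ranking. The dm3 lists were not used.

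Coordinates are 1-based dm6. Genes and 23697 start sites came from Ensembl release 115 without transposable elements (18277 genes), and sequences from the RefSeq reference of assembly release 6. A summit within 500 bp of a start counted as promoter. A replicate supported a call when the pooled summit lay inside its call. Of 60 wider-list names, 55 matched by symbol and 4 by synonym, 1 being a second name of a listed gene. The members, the wider list and the rules were chosen with earlier results of these data known. The named genes were the 8 members, up to 12 wider-list genes with an IDR peak, genes nearest to rdx IDR peaks and the 3 protein-coding genes most like rdx in best rank; Cul3, the named target genes, the co-receptors and neighbouring genes were named after their values were seen. The GAGA and Zelda motifs were chosen later, with these calls in view. Assignment of calls to genes was tested on simulated data. Python 3.11.15, numpy 2.4.6, pandas 2.3.3 and matplotlib 3.10.9 were used. Alternatives were other gene windows, call overlap, stronger subsets, each replicate left out, other start-site and motif windows, and ranking by column 9. Depth is unknown, so no precision can be given for a single call.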

Additional observations from a re-analysis of the deposited data

How the results depend on the processing

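Of 55 alternative values, 42 stayed within 1.5 times the reported one. The count of members with an IDR peak was 1 under every window tried, with any overlap of the call and among the strongest 571 IDR peaks. Restriction to stronger calls lowered counts: with the strongest 571 IDR peaks, rdx held 2 peaks and 7 wider-list genes had one, and with the strongest 15000 pooled calls, rdx held 18 and the 8 genes 31. With no flank around genes, 7 wider-list genes had an IDR peak, and without genes of 50 kb or more, 10 had one. Requiring support from the strongest 1143 calls of every replicate left 1 IDR peak and 1 pooled call at rdx. Leaving out single replicates gave 3 to 4 IDR peaks at rdx with full support and 5 to 15 pooled calls, the 15 without replicate 2. With a start window of 250 bp, the number of promoter IDR peaks at rdx was 0. Ranked by column 9, the best rdx call had rank 1, tied among 473 calls. With up to 1 mismatch, the Ci motif was present in 1 of 58 member calls within 50 bp (1.72%, against 1.2% of all pooled calls). Within 200 bp it was present in 6 of 58 (10.3%, against 5.67%). An exact match within 100 bp was present in 0 (against 0.0767%). The exact match, the length restriction, the long-gene background and the GAGA and Zelda motifs were chosen after seeing the data. No paired analysis was possible because the samples form 1 group. Depth per replicate is unknown, so the absence of a call at smo, cos or Su(fu) shows only that none entered the 30000 of that list.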

Other observations

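Some replicate calls at the 8 genes had no counterpart in the pool. Of the replicate calls assigned to them, 37 of 72 in replicate 1, 5 of 23 in replicate 2 and 21 of 48 in replicate 4 had the summit in no pooled call. At rdx these were 18 of 39, 2 of 8 and 10 of 28. Over all 30000 calls of each list the shares were 49.6, 49.6 and 55.7%. The replicate 1 call at the divergent smo and CG17078 starts, with rank 1011, was the strongest call at smo, cos and Su(fu), the members with no pooled call.

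At ci, each replicate had at least 1 call within 500 bp of a ci start that overlapped no pooled call. Replicate 1 had 2 such calls. The stronger ranked 4087 and lay 142 bp upstream of a ci start and 24 bp upstream of the start of asRNA:CR43957. The calls carry no strand, so for this call the start of ci and that of the antisense RNA cannot be told apart. The weaker ranked 19868 and lay 343 bp upstream of a ci start. It was nearer to the start of asRNA:CR43957, 177 bp downstream of it, so the same limit holds for the weaker call. The replicate 2 call ranked 18274 and lay 165 bp downstream of a ci start, and the replicate 4 call ranked 6205 and lay 94 bp downstream of one.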
